A study of Rattus norvegicus with 3 samples.

Results

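The smooth muscle contractile genes are 10 genes, Acta2, Actg2, Tagln, Cnn1, Myh11, Myl9, Tpm1, Tpm2, Cald1 and Mylk, that were chosen for their shared function in the contractile apparatus. Their probes were found through the RefSeq accession that the array design gives each probe. A total of 16 of the 40816 probes kept were named for 9 of the 10 genes, out of 13295 genes with a named probe. No probe was named for Acta2, which is not analysed here. All 9 genes were well above background on at least 1 array, as were 10005 of all genes.

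The study compared COS1NR, a rat osteosarcoma cell line, and MFH1NR, a rat malignant fibrous histiocytoma (MFH) cell line, with rat mesenchymal stem cells (MSCs). All cells were of F344 rats, and both lines came from tumors induced with the carcinogen 4-HAQO and carry a p53 mutation per the methods. MSCs were freshly isolated from femur bone marrow as cells that grow on a plastic dish, were not sorted, and were kept with a higher share of serum than the lines. Each cell type was measured on 1 array with no replicates, so no difference could be tested and every comparison describes these 3 arrays. Both lines were on a shared slide and scan and MSCs on another slide, so in any comparison with MSCs the slide cannot be told apart from the cell type.

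Smooth muscle cells shorten when myosin pulls on actin filaments. Calcium and calmodulin activate myosin light chain kinase, the kinase phosphorylates the regulatory light chain, and the myosin heads then bind actin. Tropomyosin, caldesmon, calponin and transgelin lie along the actin filament and steady it or limit its contact with myosin. Many of these genes are also used by myofibroblasts, pericytes and cultured bone marrow stromal cells, and their transcription is known to depend on serum response factor (SRF) bound to a DNA element called the CArG box, together with coactivators of the myocardin family.

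The CArG box was searched in the RefSeq promoter windows of the GRCr8 assembly, each of 300 bases, from 250 bases before the start of a gene to 50 bases after it. The consensus is its own reverse complement, so a search of 1 strand covers both. Windows were given for 7 of the 10 genes (8 windows), and not for Tagln, Myh11 and Myl9. No exact CArG box was found in these 8 windows, against 1.64% of all 33469 windows. A match with at most 1 base off the consensus was found in 3 of the 8, those of Acta2, Tpm1 and Cald1, against 21.3% of all windows. The stretches of Acta2 and Tpm1, which held 2 such near matches each, are shown with those of Srf, which encodes SRF itself and held 2 exact boxes, and of Actg1, a non-muscle actin gene with 1 exact box. Capitals mark the exact and near matches, and each stretch is written 5′ to 3′ on the strand of the gene.
Acta2, GRCr8 chr1:241172578-241172647, minus strand: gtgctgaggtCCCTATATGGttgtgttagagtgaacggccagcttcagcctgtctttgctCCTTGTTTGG
Tpm1, GRCr8 chr8:76543456-76543620, minus strand: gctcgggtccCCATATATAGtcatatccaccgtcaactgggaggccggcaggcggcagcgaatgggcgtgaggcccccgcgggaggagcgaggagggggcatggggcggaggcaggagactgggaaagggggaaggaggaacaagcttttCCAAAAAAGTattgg
Srf, GRCr8 chr9:21923985-21924057, plus strand: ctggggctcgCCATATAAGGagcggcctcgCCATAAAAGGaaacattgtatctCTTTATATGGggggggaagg
Actg1, GRCr8 chr10:106121012-106121061, minus strand: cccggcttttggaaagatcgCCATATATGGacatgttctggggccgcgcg
These matches describe the letters of the windows, and binding of SRF was not measured.

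The intensities given are the processed signals of the scanner software, and every ratio was taken after each array was divided by its own 75th percentile, namely 589 (MSCs), 774 (COS1NR) and 994 (MFH1NR). The software called between 56.6% and 59.7% of spots well above background. A dim probe, one without that call, was raised to the lowest scaled signal that had it on the array if it lay below that signal. Its difference is then given as "at least". Each of the 16 probes was printed as 1 spot. The software gave their spots well above background an error of 10% to 11.5% of the intensity. This makes 0.20 to 0.23 on a log2 ratio of such spots and covers neither culture nor labeling. Across 1893 genes, the log2 ratios of a pair of probes of the same gene differed by a median of 0.28 in COS1NR over MSCs and 0.31 in MFH1NR over MSCs.

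MSCs held the highest level of the contractile genes. All 9 measured genes were lower in both sarcoma lines, and 8 of them were lower by at least 2-fold in both, where 13.7% of all genes with a ratio to MSCs were. In COS1NR, 9 of 9 were at least 2-fold lower and none was higher, against 20.1% of 9635 genes lower and 20.8% higher. In MFH1NR, 8 of 9 were at least 2-fold lower, against 21.6% of 9818 genes lower and 19.3% higher. The median log2 ratio of the 9 genes was -3.33 in COS1NR and -2.08 in MFH1NR, beside medians over all genes of 0.11 and 0.02. Of these values, 3 in COS1NR and 2 in MFH1NR were bounds. The direction held by all probes, since 16 of 16 were lower in either line, while 37.3% of all genes with both ratios were lower by any amount in both. Without scaling, 15.1% of all genes were at least 2-fold lower and 33.2% higher in COS1NR, 13.2% and 42.1% in MFH1NR, and 8 and 7 of the 9 genes were at least 2-fold lower. With scaling by spike-in probes, 14.5% of all genes were lower and 36.7% higher in MFH1NR. Cells that use less of these RNAs and a smaller share of cells that use them cannot be told apart in bulk RNA.

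**Figure D1:**
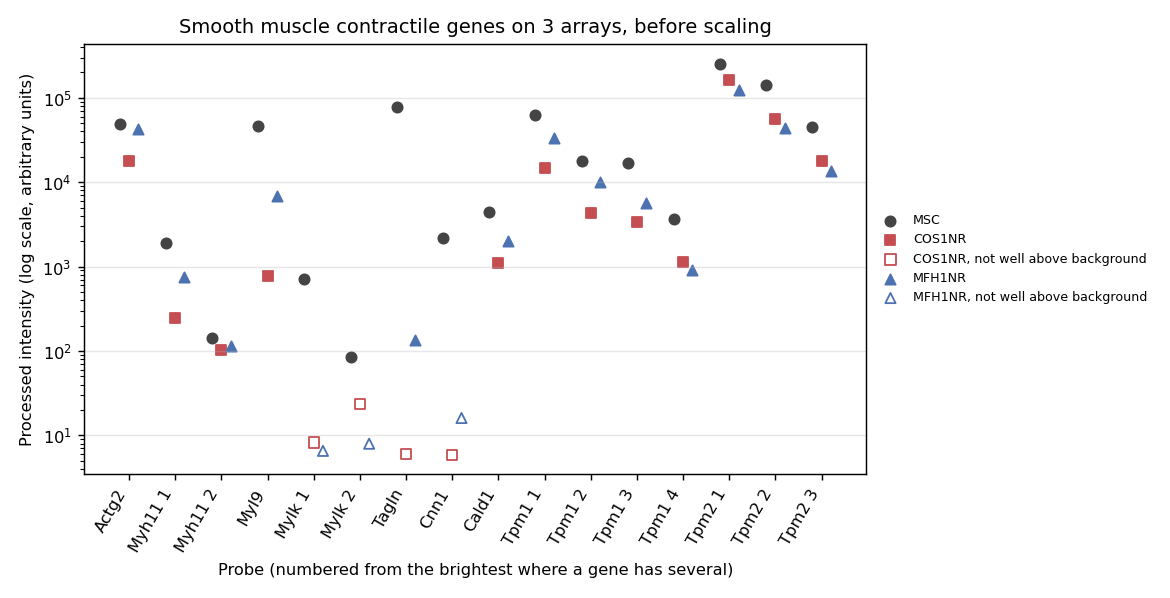
Processed intensity (log axis, arbitrary units, not scaled between arrays) of the 16 probes of 9 smooth muscle contractile genes on the arrays of MSCs (circles), COS1NR (squares) and MFH1NR (triangles); each point is 1 spot on 1 array, and open symbols are not well above background. The MSC point is the highest for every probe, and Tagln lies at 78247 in MSCs and 136 in MFH1NR.

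Actg2 encodes the gamma smooth muscle actin of gut and other viscera, a filament subunit. It read 48666 on the MSC array, 17979 on that of COS1NR and 42802 on that of MFH1NR. The ratio to MSCs was 0.281 in COS1NR and 0.521 in MFH1NR. Actg2 alone of the 9 genes was within 2-fold of MSCs in MFH1NR. Without scaling its log2 ratio there was -0.19, and Tpm1 was then within 2-fold too, at -0.93. Actins of different genes are nearly alike in sequence, and which of them this probe also detects was not tested.

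Among the motor genes, Myl9, the regulatory light chain whose phosphorylation starts contraction, measured 46234 for MSCs, 774 for COS1NR and 6830 for MFH1NR. It was 78.5-fold lower in COS1NR and 11.4-fold lower in MFH1NR than in MSCs. Of the 7927 genes well above background on all 3 arrays, 0.391% were lower by at least as much in COS1NR and 2.30% in MFH1NR. Myl9 therefore kept a measurable level in both lines, with COS1NR the lower.

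Myh11 encodes the smooth muscle myosin heavy chain. Its brighter probe showed a signal of 1907 (MSCs), 249 (COS1NR) and 762 (MFH1NR), which was 10.1-fold lower in COS1NR and 4.23-fold lower in MFH1NR. Its dimmer probe read 141, 101 and 114 in the same order, and its ratios to MSCs were 0.546 and 0.479. Both probes had the same direction against MSCs, but the dimmer one gave a far smaller difference, by 2.46 in log2 in COS1NR. Only 1 pair of probes in 10 differed by more than 0.91 in that comparison.

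Mylk encodes myosin light chain kinase. Its brighter probe had an intensity of 711 in MSCs and was not well above background in COS1NR, at 8.23, or in MFH1NR, at 6.56. The difference from MSCs was thus at least 31.8-fold for COS1NR and at least 39.9-fold for MFH1NR, with MSCs the higher. The dimmer probe, at 84.5 in MSCs, was also not well above background in either line and gave bounds of 3.78-fold and 4.74-fold. Mylk RNA was thus well above background in MSCs only. With another background correction (normexp), the log2 bounds of the brighter probe moved from -4.99 to -3.56 in COS1NR and from -5.32 to -3.68 in MFH1NR.

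Tagln and Cnn1 bind actin, and their differences were bounds except for Tagln in MFH1NR. Tagln, which encodes transgelin (SM22-alpha), an early marker of smooth muscle cells, gave 78247 units with MSCs, 6.0 with COS1NR and 136 with MFH1NR. Not being well above background in COS1NR, it was below MSCs by at least 3498-fold, and in MFH1NR it was 971-fold lower by a measured ratio of 0.00103. Cnn1, which encodes calponin 1, an inhibitor of the myosin ATPase, read 2166 on the MSC array, 5.88 on that of COS1NR and 16.1 on that of MFH1NR. Neither line had it well above background, and MSCs exceeded COS1NR by at least 96.8-fold and MFH1NR by at least 122-fold. Apart from Tagln in MFH1NR, the size of these differences is limited by the background of the sarcoma arrays. Neither gene had a second named probe. The bounds also depend on the background correction. With another one (normexp), Tagln in COS1NR moved from -11.77 to -10.56 in log2. Cnn1 moved from -6.60 to -5.54 in COS1NR and from -6.93 to -5.52 in MFH1NR.

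Cald1, which encodes caldesmon, an actin-binding brake on myosin found in smooth muscle and in non-muscle splice forms, was lower by less. Its single probe measured 4395 for MSCs, 1113 for COS1NR and 2038 for MFH1NR, which was 5.19-fold lower in COS1NR and 3.64-fold lower in MFH1NR. It stayed well above background on all 3 arrays.

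Tropomyosins are coiled rods that lie along actin, and Tpm1 and Tpm2 each give muscle and non-muscle splice forms. The brightest of 4 Tpm1 probes showed a signal of 63358 (MSCs), 14909 (COS1NR) and 33225 (MFH1NR). The log2 ratios of the 4 probes ran from -2.73 to -2.10 in COS1NR and from -2.78 to -1.59 in MFH1NR. The probes were close to each other in COS1NR and less so in MFH1NR, where they spanned 1.19 in log2 beside 0.64 in COS1NR. The 4 probes carry the accessions of 2 transcripts, and which splice forms each of them detects was not resolved here.

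The brightest of 3 Tpm2 probes gave 254663 units with MSCs, 163211 with COS1NR and 125408 with MFH1NR, with log2 ratios to MSCs of -1.04 and -1.78. For the other probes, COS1NR lay at -1.70 and -1.72 and MFH1NR at -2.45 and -2.48. Tpm2 was lower in both lines by all 3 probes. By the brightest it was within 2-fold in COS1NR without scaling (-0.64), with median scaling (-0.87) and after quantile normalization (-0.71).

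**Figure D2:**
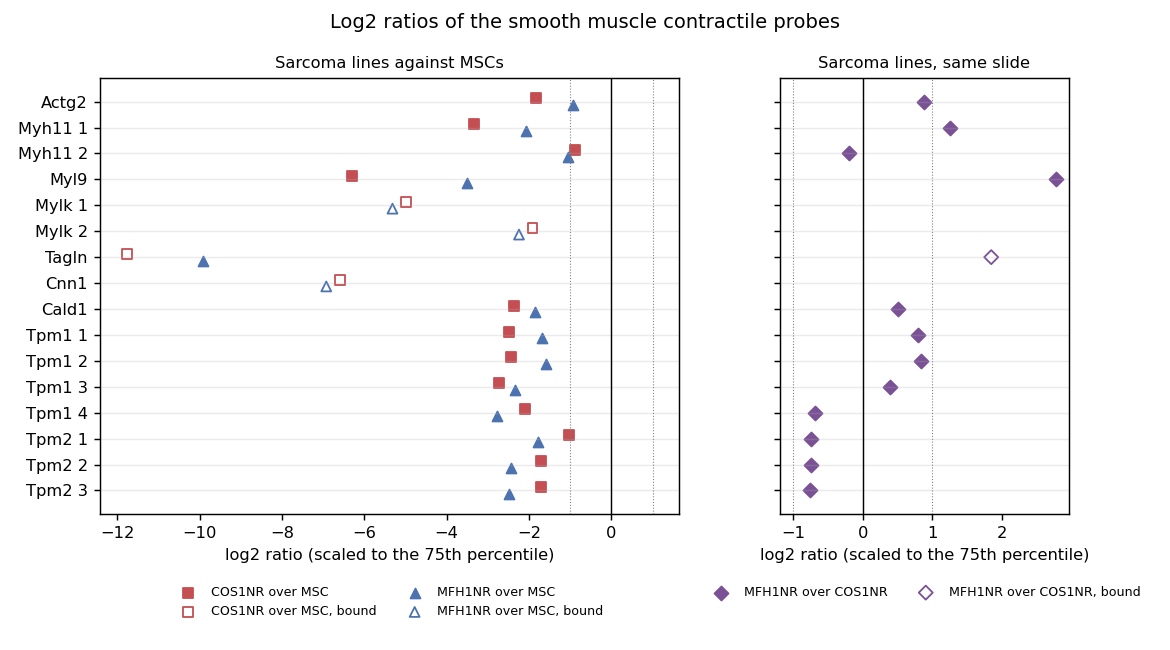
Scaled log2 ratios of the 16 probes, with both sarcoma lines over MSCs on the left and MFH1NR over COS1NR on the right; open symbols are bounds, dotted lines mark 2-fold, and probes with no ratio are not drawn. All points on the left lie below 0, and on the right they lie on both sides, from -0.76 to 2.78.

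**Figure D3:**
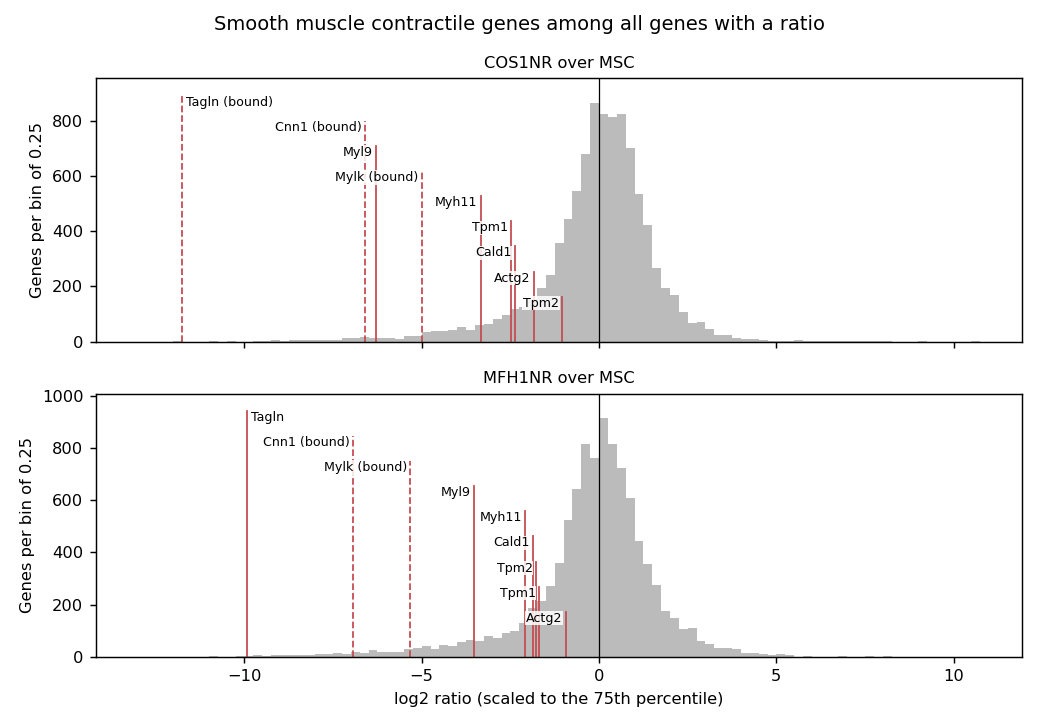
Histograms of the scaled log2 ratio over MSCs of all genes with a ratio (9635 in COS1NR, 9818 in MFH1NR; bins of 0.25), with the 9 smooth muscle contractile genes as vertical lines (dashed for bounds). All 9 lie left of 0, with Tagln farthest left in both panels.

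Against each other, the sarcoma lines differed in these genes too, and this comparison lies within 1 slide. Of the 7 genes with a ratio, 6 were higher in MFH1NR and 1 was lower, with 3 at least 2-fold higher and 0 at least 2-fold lower, against 12.5% of 9330 genes higher and 15.2% lower. Myl9 was 6.87-fold higher in MFH1NR than in COS1NR. Tagln was at least 3.60-fold higher, and its log2 bound moved from 1.85 to 1.23 with normexp. Myh11 by its brighter probe was 2.38-fold higher, while its dimmer probe had a ratio of 0.878. The other genes were within 2-fold, with log2 ratios of 0.89 for Actg2, 0.79 for Tpm1, 0.51 for Cald1 and -0.74 for Tpm2. The probe pairs of a gene differed by a median of 0.15 in this comparison. The 4 Tpm1 probes lay on both sides of 0, from -0.68 to 0.85, whereas the 3 Tpm2 probes lay within 0.02 of each other. For Cnn1 and Mylk no ratio between the lines can be given, as neither was well above background in either. Without scaling, 10.2% of all genes were at least 2-fold lower and 19.9% higher in MFH1NR, and 5 of the 7 genes were at least 2-fold higher. With spike-in scaling, 7.33% and 33.6% of all genes were, 6 of the 7 genes were at least 2-fold higher, and the log2 ratio of Tpm2 turned to 0.01.

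Most of these proteins have counterparts in cells other than muscle, which build stress fibers and the contractile ring. The counterparts are named here for their relation to the 9 genes, though earlier results of these data were known when they were chosen. The brighter probe of Actb (beta-actin) read 197794 on the MSC array, 137745 on that of COS1NR and 245634 on that of MFH1NR, and that of Actg1 had 144094, 98159 and 134050. Their log2 ratios were -0.92 and -0.95 in COS1NR and -0.44 and -0.86 in MFH1NR, so both were within 2-fold of MSCs. With spike-in scaling, however, both were at least 2-fold lower in COS1NR. Actb in MFH1NR turned to 0.31 without scaling, 0.30 after quantile normalization and 0.15 with spike-in scaling. Beside the light chain gene Myl9, at -6.29 and -3.51, Myl12a had log2 ratios of -0.17 and -0.64 and Myl12b had -0.59 and -1.06. A dimmer Myl12a probe gave -0.55 and -1.01, and without scaling the brighter one turned to 0.22 and 0.12. The dimmer Actb probe gave -0.94 and -0.57. Myl12b in MFH1NR was within 2-fold under every other scaling tried, from -0.98 after quantile normalization to -0.31 without scaling.

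Calponin 3 (Cnn3) and transgelin 2 (Tagln2) remained bright in both lines, unlike Cnn1 and Tagln. Cnn3 measured 37492 for MSCs, 46357 for COS1NR and 20240 for MFH1NR, with log2 ratios of -0.09 and -1.64, the former of which turned to 0.31 without scaling and 0.07 with median scaling, while the latter was within 2-fold without scaling (-0.89). Tagln2 had 32837, 24952 and 9819, with log2 ratios of -0.79 and -2.50. The order of the lines was thus COS1NR above MFH1NR for these counterparts and, for Tagln, MFH1NR above COS1NR.

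The heavy chains were not ordered in this way in COS1NR. Myh9, a non-muscle heavy chain, showed a signal of 2740 (MSCs), 239 (COS1NR) and 1529 (MFH1NR) and was 15.1-fold and 3.03-fold lower, the latter within 2-fold without scaling (-0.84), and Myh10 had log2 ratios of -0.99 and -0.63, and without scaling MFH1NR lay at 0.12. The other Myh10 probes gave between -1.63 and -1.53 in both lines. Tpm3 had log2 ratios of 0.55 and 0.47 by its brightest probe, and Tpm4 had -1.33 and -0.97. The other Tpm3 probes lay between 0.01 and 1.49 in COS1NR. In MFH1NR they lay between -0.18 and 1.03, apart from a dim probe with a bound of -1.33. By the brightest probe of each gene, the log2 ratio of 5 of 7 smooth muscle genes in COS1NR and 7 of 7 in MFH1NR was below that of every measured counterpart. By its dimmer probe, at -1.06 in MFH1NR, Myh11 was above Myh9, at -1.60, and above the dimmer Myh10 probes. In COS1NR that Myh11 probe, at -0.87, was above Myh9, at -3.91, and all Myh10 probes. The exceptions in COS1NR by the brightest probes were Myh11, which was above Myh9, and Tpm2, which was above Tpm4. By its other probes, at -1.70 and -1.72 in COS1NR, Tpm2 was below Tpm4. The gap of Actg2 to Actg1 in MFH1NR was only 0.08.

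**Figure D4:**
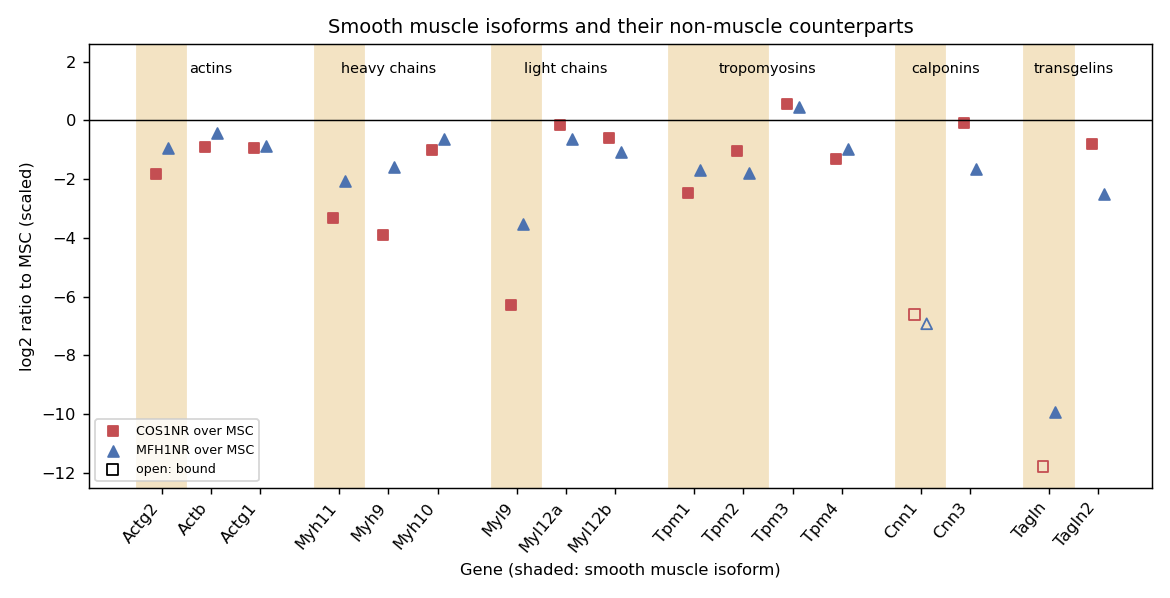
Scaled log2 ratios to MSCs of 7 smooth muscle genes (shaded) beside their measured non-muscle counterparts, for COS1NR (squares) and MFH1NR (triangles); each point is the brightest probe of a gene on 1 pair of arrays and open symbols are bounds. The widest gaps are those of Tagln, Cnn1 and Myl9.

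A further list held 15 structural genes of the differentiated smooth muscle cell, of which 10 had a probe and 9 a ratio. At least 2-fold lower were 8 of the 9 in COS1NR and 5 in MFH1NR, and 0 and 1 were higher, with median log2 ratios of -2.04 and -1.34. Of all genes, 20.1% in COS1NR and 21.6% in MFH1NR were lower. Without scaling, 7 and 3 of the 9 were lower, beside 15.1% and 13.2% of all genes, and the medians were -1.65 and -0.58. Vcl (vinculin, which ties actin to adhesion sites) gave 9166 units with MSCs, 2127 with COS1NR and 4704 with MFH1NR, with log2 ratios of -2.50 and -1.72. Csrp1, a LIM protein of smooth muscle, had 18967, 5017 and 18300, with log2 ratios of -2.31 and -0.81. Lmod1 (leiomodin 1, an actin nucleator of smooth muscle) had a low signal in MSCs, at 196, and was not well above background in either line, at least 8.77-fold and 11-fold lower. Des, the muscle intermediate filament desmin, was lower in MFH1NR than in COS1NR, with 1471 (MSCs), 1047 (COS1NR) and 196 (MFH1NR) and log2 ratios of -0.88 and -3.66. Vcl in MFH1NR was within 2-fold without scaling, at -0.96, and for its other probes COS1NR lay at -2.67 and -3.67 and MFH1NR at -1.94 and -2.84.

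Of 18 genes that control light chain phosphorylation and calcium, 15 had a ratio. At least 2-fold lower were 5 in COS1NR and 6 in MFH1NR, higher were 1 and 2, and the medians were -0.24 and -0.50. Of all genes, 20.1% and 21.6% were lower and 20.8% and 19.3% higher. No direction can be given for this list, since without scaling the medians turned to 0.11 and 0.13, with 4 genes lower and 3 higher in MFH1NR. Itpr1, a calcium release channel, read 11614 on the MSC array, 2566 on that of COS1NR and 3333 on that of MFH1NR, and its log2 ratios were -2.57 and -2.56. Cacna1c, the pore of the L-type calcium channel, had 300.0 in MSCs and was not well above background in either line, at least 13.4-fold and 16.8-fold lower. Kcnmb1, a potassium channel subunit of smooth muscle, had 73.4 in MSCs and was not well above background in the lines either, at least 3.28-fold and 4.12-fold lower, with log2 bounds of -0.61 and -0.94 by a dimmer probe. The other probe of Itpr1 gave log2 ratios of -2.44 and -2.33, and that of Cacna1c gave none. Ppp1r14a (CPI-17, an inhibitor of myosin phosphatase) had 1621, 2351 and 340 and log2 ratios of 0.14 and -3.01, the former of which turned to -0.01 with spike-in scaling. The share of genes lower was thus smaller here than among the structural genes, a difference that was not tested.

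SRF and the factors that act with it were measured as a list of 9 genes, of which 7 had a probe. Srf measured 8383 for MSCs, 9277 for COS1NR and 11741 for MFH1NR by its brightest probe, with log2 ratios of -0.25 and -0.27 that turned to 0.15 and 0.49 without scaling. Its other probes gave values between -0.41 and 1.55 in COS1NR and between -0.76 and 0.96 in MFH1NR, so no direction can be given. Myocd (myocardin) was just above background in MSCs, at 20.5, and not in the lines, and no probe was named for its relatives Mrtfa and Mrtfb. Of the 6 genes with a ratio in each line, 1 in COS1NR and 3 in MFH1NR were at least 2-fold lower and 1 and 0 were higher, beside 20.1% and 21.6% of all genes lower. The median log2 ratios were -0.31 and -0.71, beside 0.11 and 0.02 over all genes, and that of COS1NR turned to 0.08 without scaling. In MFH1NR the count of lower genes was 1 of 5 without scaling and 2 of 5 with median or spike-in scaling. The shares of all genes lower were 13.2%, 18.4% and 14.5% in the same order.

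The cofactor Fhl2 showed a signal of 3213 (MSCs), 971 (COS1NR) and 1687 (MFH1NR), and its log2 ratios were -2.12 and -1.68. Fhl1, a related LIM protein of muscle, had 1540 and 1494 in MSCs and COS1NR by the brightest of its 3 probes, which was not well above background in MFH1NR and at least 86.4-fold lower there. The other probes were well above background in MFH1NR and gave log2 ratios of -3.47 and -1.43. Klf4, a repressor of smooth muscle genes, had 5424, 5481 and 4101 and log2 ratios of -0.38 and -1.16. Without scaling, Klf4 lay at 0.02 in COS1NR and -0.40 in MFH1NR, and with median and spike-in scaling it lay within 2-fold in MFH1NR too, at -0.94 and -0.56. Fhl2 in MFH1NR was within 2-fold without scaling, at -0.93. Gata6, a transcription factor of vascular smooth muscle, was well above background in COS1NR only, where it exceeded MSCs by at least 7.19-fold by its brightest probe, with log2 bounds of 0.86 and 1.33 by the others. The lines differed in Fhl1 and Gata6 in opposite ways to Tagln and Myl9, with COS1NR the higher.

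The non-muscle list of 15 genes had a ratio for 13, of which 5 in COS1NR and 6 in MFH1NR were at least 2-fold lower and 0 higher, with medians of -0.95 and -0.97, beside 20.1% and 21.6% of all genes lower. With spike-in scaling 8 were lower in COS1NR, beside 22.8% of all genes. Without scaling 2 were lower and 1 higher in MFH1NR, beside 13.2% and 42.1% of all genes. The medians were then -0.55 in COS1NR and -0.21 in MFH1NR. Flna, the actin crosslinker filamin A, gave 31719 units with MSCs, 7311 with COS1NR and 7136 with MFH1NR, and was 5.70-fold and 7.50-fold lower. Actn4, an alpha-actinin, had 13764, 4802 and 11888 and log2 ratios of -1.91 and -0.97.

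**Figure D5:**
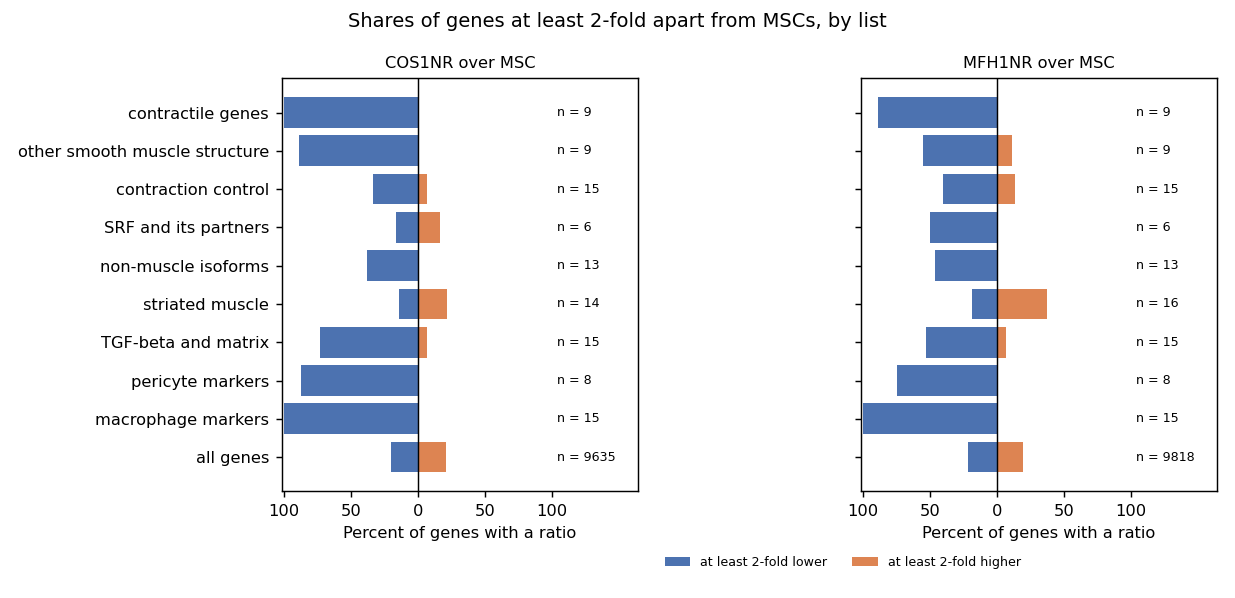
Percent of the genes with a ratio that were at least 2-fold lower (left of 0) or higher (right of 0) than in MSCs. Each list shown is drawn for COS1NR and MFH1NR, with n the number of genes with a ratio and 1 array per cell type. Markers of MSCs, osteoblasts, endothelial cells, adipocytes and fibroblasts are not drawn. The bars of the 9 contractile genes reach 9 of 9 in COS1NR and 8 of 9 in MFH1NR, and the bottom bar shows all genes.

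Markers of other cell types also differed between the arrays, and their counts stand beside 20.1% of all genes lower and 20.8% higher in COS1NR and 21.6% and 19.3% in MFH1NR. The cells labelled MSCs had the 4 MSC markers Nt5e, Eng, Thy1 and Cd44 well above background, and also 8 of 8 pericyte markers and 15 of 15 macrophage markers. The scaled levels of the pericyte markers summed to 206 for MSCs, 111 for COS1NR and 79.3 for MFH1NR, with 7 and 6 of the 8 at least 2-fold lower in the lines (6 and 5 without scaling, with 1 higher in COS1NR). Notch3 made up most of these sums in the lines, and without it they were 138, 5.68 and 18.1 in the same order. Rgs5, Kcnj8 and Abcc9 were not well above background in either line, nor was Cspg4 in MFH1NR. The macrophage markers summed to 178 in MSCs but to 9.71 in COS1NR and 4.84 in MFH1NR, with 15 of 15 at least 2-fold lower in both (13 without scaling, where Ptprc and Cd163 lay within 2-fold) and 7 and 8 of them not well above background. Of 15 TGF-beta and matrix genes of myofibroblasts with a ratio, 11 in COS1NR and 8 in MFH1NR were at least 2-fold lower and 1 in each was higher, the latter being 3 in MFH1NR without scaling or with spike-in scaling and 2 with median scaling. The higher gene in both lines was Ccn1, a matricellular protein, by 17.2-fold and 11.2-fold, with log2 ratios of 3.42 and 2.93 by its dimmer probe. Of 6 fibroblast markers with a ratio, 5 and 3 were lower and 0 and 1 higher. Adipocyte markers went the other way in COS1NR, with 4 of 5 higher there and 3 of 5 lower in MFH1NR. Endothelial markers were scarce, with 3 of 6 well above background in MSCs and a summed level of 0.705. The part of these cell types in the results was not tested. In COS1NR, labelled osteosarcoma, 4 of 7 osteoblast markers with a probe (Alpl, Bglap, Ibsp and Spp1) were well above background, all 4 at least 2-fold lower than in MSCs, and Sp7, Dmp1 and Phex were not. Spp1 there was within 2-fold without scaling (-0.70) and with median scaling (-0.93). In MFH1NR 5 of 7 were well above background, and of 6 with a ratio 3 were lower (Ibsp, Bglap and, as a bound, Dmp1) and 2 higher (Sp7, as a bound, and Spp1). The bound of Dmp1 there was within 2-fold without scaling (-0.54) and with spike-in scaling (-0.70). Sp7 was not well above background in MSCs either, and Phex on none of the 3 arrays.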

How the data were processed

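RNA of MSCs, COS1NR and MFH1NR was measured on 1 Agilent whole rat genome array each, with Cy3 only. For RNA isolation and labeling, the labels and the methods name different kits. The authors deposited the processed intensities of Agilent Feature Extraction (10.5.1.1 per the file headers, 9.1 in the submitters' processing notes), which subtracted the background and detrended each array without scaling between arrays. The deposited series table held the same intensities on 3 of 3 arrays.

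Control spots and 187 to 217 spots per array flagged as outliers were left out, and log2 intensities were taken relative to the 75th percentile of the array. Probes were named through RefSeq accessions of the GRCr8 gene table, and 16736 were named. The array was designed on another build, and no probe positions are printed. For each gene the probe with the highest mean log2 intensity was taken, and other probes of the genes given with values are described beside it. Called means at least 2-fold, with bounds for probes not well above background. The number of arrays limits the precision, and no test was made. The genes and lists were chosen with earlier results of these data known. Named are all 10 genes, counts of each list, the 4 genes of largest ratio in 4 of the lists with Srf, Myocd, Actb and Actg1, and the counterparts.

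Alternatives were no, median, quantile and spike-in scaling (7 probes), normexp with an offset of 50, the series table, the mean or the dimmest of a gene's probes, flagged spots kept, no bounds, only probes well above background on both arrays, and a 3-fold threshold. Normexp was run on median spot signals, since the files used hold no mean signals. The calling step was tested on simulated data. Values were computed in Python 3.11.15 (numpy 2.4.6, pandas 2.3.3), figures were drawn with matplotlib 3.10.9, and normexp was run with limma 3.58.1 in R 4.3.3.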

Additional observations from a re-analysis of the deposited data

Results flagged for a closer look

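Csrp2, which encodes a LIM protein related to Csrp1 and expressed in vascular smooth muscle, was set apart because the sarcoma lines lay on opposite sides of MSCs by at least 2-fold. Its probe read 8950 on the MSC array, 2471 on that of COS1NR and 33618 on that of MFH1NR. The log2 ratio to MSCs was -2.25 for COS1NR and 1.15 for MFH1NR, both against the same MSC array. It was 10.6-fold higher in MFH1NR than in COS1NR on the shared slide, a difference that was not tested, and it has 1 probe.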

How the results depend on the processing

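All 9 genes were below MSCs in both lines under every alternative that gave a value. The median log2 ratio of COS1NR over MSCs moved from -3.33 to -2.94 without scaling, -3.01 with normexp, -2.44 with the mean of all probes, -2.10 with the dimmest probe and -2.43 for the 6 genes well above background on both arrays. That of MFH1NR over MSCs moved from -2.08 to -1.32 without scaling, -1.48 with spike-in scaling and -2.48 with the dimmest probe. Between the lines, the count of genes at least 2-fold higher in MFH1NR moved from 3 to 5 without scaling, 5 after quantile normalization and 6 with spike-in scaling. The share of all genes higher there moved from 12.5% to 19.9%, 13.2% and 33.6% in the same order. The median of 0.89 there moved to 1.25, 1.14 and 1.64 in the same order, 0.53 with the mean of all probes and 0.51 with the dimmest probe. By their dimmest probes Myh11 reversed there to -0.19 and Tpm1 turned from 0.79 to -0.68, and Tpm2 turned to 0.01 with spike-in scaling. The cause of these shifts was not tested beyond the change of scale or probe. Relative to the 75th percentile, the median of all genes shifted by 0.41 in COS1NR and 0.78 in MFH1NR over MSCs without scaling, by 0.17 and 0.22 with median scaling and by -0.16 and 0.61 with spike-in scaling. In MFH1NR over COS1NR it shifted by 0.36 without scaling and 0.76 with spike-in scaling. Another 89 values of these counts and medians moved by at most 1.5 times (counts) or by less than the median gap of a probe pair (medians). Signal over background limits Tagln in COS1NR and Cnn1 and Mylk in both lines. No paired analysis was possible because the labels give no replicate numbers and each cell type has 1 array.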

Other observations

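Genes of striated muscle lay on both sides of MSCs. Of 30 skeletal and cardiac muscle genes, 27 had a probe and 16 were well above background on at least 1 array. At least 2-fold higher than in MSCs were 3 of the 14 with a ratio in COS1NR and 6 of the 16 in MFH1NR, and 2 and 3 were lower. Over all genes, 20.8% and 19.3% were higher and 20.1% and 21.6% lower. In MFH1NR, 8 of 14 were higher without scaling and with spike-in scaling, beside 42.1% and 36.7% of all genes, and 7 of 16 with median scaling and quantile normalization, beside 24.7% and 20.7%. In COS1NR, 4 of 12 were higher without scaling (33.2% of all genes), 4 of 13 with median scaling (25.4%) and quantile normalization (20.6%), and 2 of 14 with spike-in scaling (17.0%). Under each of these scalings 2 were lower in each line. The genes named next were chosen after their values were seen. Acta1, the skeletal muscle actin, read 292 on the MSC array, 902 on that of COS1NR and 2496 on that of MFH1NR and was 2.35-fold and 5.06-fold higher. Mb (myoglobin) had 443, 2144 and 1831 and was 3.68-fold and 2.45-fold higher. Tnni3, cardiac troponin I, had 45.3, 115 and 372, and Myh1, a fast skeletal myosin heavy chain, was well above background in MFH1NR only, at 231, and at least 7.62-fold higher there than in MSCs. Lower in both lines were Myl4, an atrial myosin light chain, with log2 ratios of -2.62 and -3.04, and Tnnt3, a fast skeletal troponin T, by at least 10.05-fold in COS1NR and at least 12.6-fold in MFH1NR. Tnni1, a slow skeletal troponin I, was lower by at least 1.65-fold and 2.07-fold, the latter within 2-fold under each of the 4 other scalings (log2 ratios from -0.84 to -0.29). Of the myogenic factors, Myog was well above background in MFH1NR only, at 58.7, at least 1.93-fold over MSCs. Myod1, Myf5 and Myf6, and the creatine kinase gene Ckm, were not well above background on any of the 3 arrays.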
